A study of Mus musculus with 24 samples.

Results

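Amino acid transporters are the membrane proteins that carry amino acids into cells, out of cells and across the lysosomal membrane. The genes described here were chosen by a rule on their names, with earlier results of these data known. The rule took every gene in the deposited tables whose symbol begins with Slc1a, Slc3a, Slc7a, Slc36a, Slc38a or Slc43a. It also took Slc6a6, Slc6a9, Slc6a20a and Slc16a10. This rule gave 37 of 16821 genes. Of the 37, 34 had enough reads to be tested, and Slc7a3, Slc6a20a and Slc38a11 were removed by the filter on low counts. Slc7a6os, which lies beside Slc7a6 on chromosome 8 on the opposite strand, is not a transporter and is counted only because its symbol begins with Slc7a.

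The tissue was IWAT, inguinal white adipose tissue, a fat pad under the skin of the groin, from 24 male C57BL6/J mice that began their diets at 5 weeks of age and ate them for 12 weeks. The mice were 4 months old when killed, and had been fasted for 4 h. The 4 diets, with 6 mice each, crossed protein source with methionine, which was 0.86% in both control diets and 0.17% in both methionine-restricted (MR) diets. As protein, the elemental control and elemental MR diets had free amino acids, the casein control diet had casein, and the oxidized casein MR diet had casein that was oxidized. Oxidation removed the methionine of casein, and free methionine was added back, so the casein comparison changes the oxidation state of the protein together with the methionine level, and the effects of these changes cannot be told apart. The series asks how MR built on oxidized casein acts on the transcriptome beside MR built on elemental amino acids; its design text speaks of the liver, whereas the title and the sample source give IWAT. All 14 white adipocyte markers were present in the libraries, among them Adipoq (adiponectin) at 1591 to 5208 CPM, a gene's reads scaled by the library's TMM-adjusted total.

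Libraries were made with a 3′ end kit, which gives 1 read position per transcript whatever its length, so levels in CPM can be set side by side between genes. Library totals ran from 7468336 to 19868913 reads. The libraries fell into 2 sets by the content of lymph node, an organ embedded in this fat pad: 15 had a mean B cell marker level of 5.32 to 6.89 log2 CPM and 9 had 0.552 to 3.48. Libraries with lymph node transcripts numbered 5 of 6 in elemental MR and 4 of 6 in its control, and 2 of 6 in oxidized casein MR and 4 of 6 in its control. One elemental control, replicate 6, held hepatocyte transcripts, with albumin (Alb) at 5610 CPM. Exons of 12 of the 37 genes overlap a gene on the opposite strand. Results that move with lymph node or hepatocyte content are given with and without it. No result was recomputed without the overlapping exons.

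Most of these carriers belong to functional systems. System L carriers exchange large neutral amino acids, methionine included, across the plasma membrane: Slc7a5 (LAT1) and Slc7a8 (LAT2) work as light chains bound to the heavy chain Slc3a2, while Slc43a1 and Slc43a2 work alone. When an amino acid is short, the kinase GCN2 and the transcription factor ATF4 are known to raise a set of carrier genes, among them Slc7a11, Slc38a2 and Slc3a2. In adipose tissue, Slc7a10 (ASC-1) is known as a marker of white adipocytes and Slc36a2 (PAT2) as a marker of brown adipocytes.

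Slc1a5 (ASCT2), an exchanger of glutamine, alanine and serine, had the highest level of the 37 genes, with a mean of 783.9 CPM over the 24 libraries and a range of 457 to 1497. It made up 27.9% to 56.7% of the CPM summed over all 37 genes in a library. Slc36a2 (186.3 CPM), Slc1a3 (172 CPM), Slc3a2 (136.5 CPM), Slc38a10 (119.5 CPM) and Slc6a6 (106 CPM) were the other 5 genes with a mean of at least 100 CPM. Another 10 genes had means between 10 and 100 CPM, 16 lay between 1 and 10 CPM, and 5 lay under 1 CPM. The summed level of the 37 genes had a median of 1730 CPM in elemental MR beside 1841 in its control, and of 2156 CPM in oxidized casein MR beside 1863 in its control, and the ranges of all 4 groups overlapped.

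**Figure D1:**
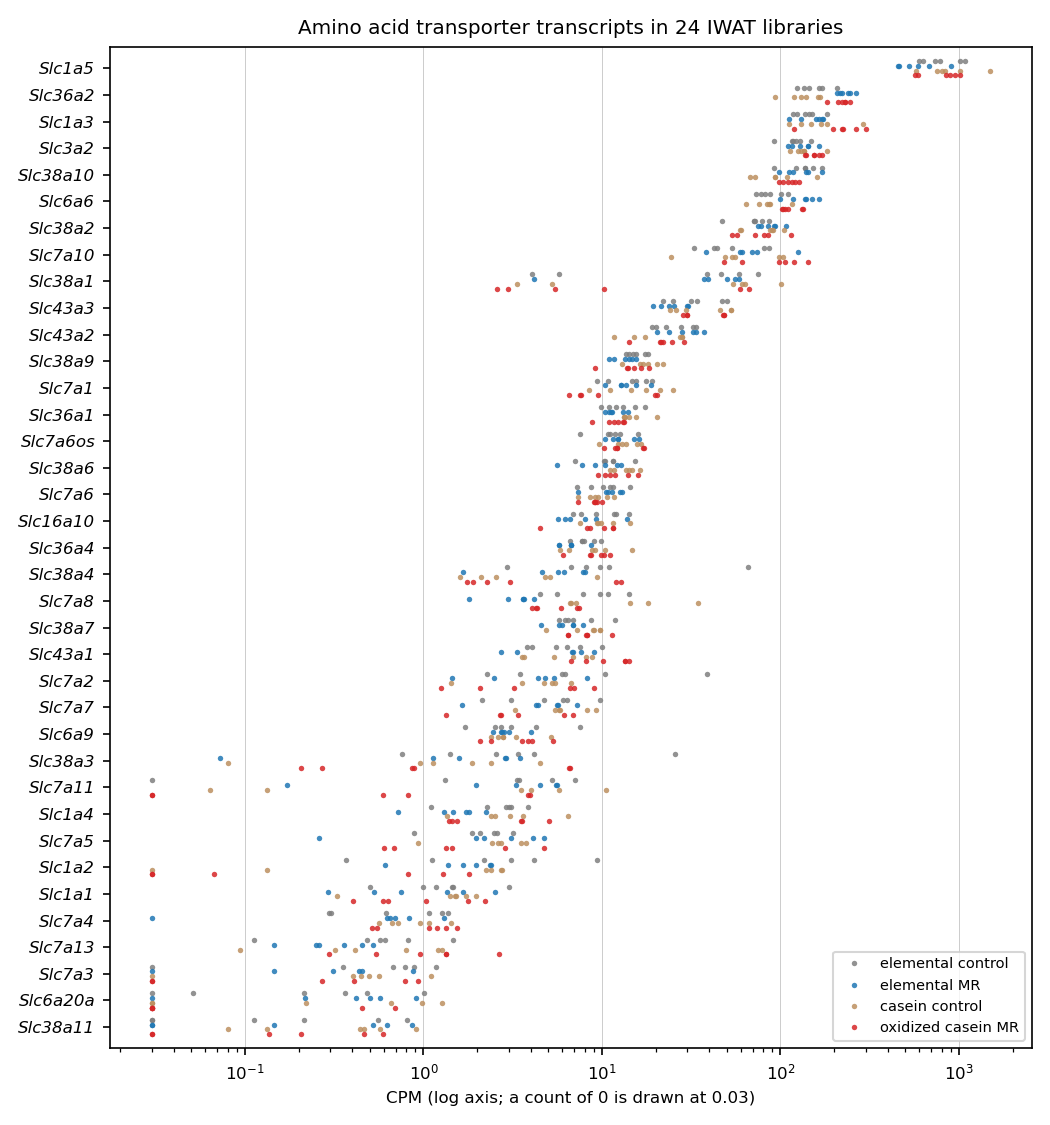
Levels of the 37 genes in the 24 libraries. Each point is 1 mouse, the horizontal axis is CPM on a log scale with a count of 0 drawn at 0.03, and genes are ordered by their mean; colours mark the 4 diets. Slc1a5 stands at the top with 457 to 1497 CPM, and Slc38a1 splits into libraries between 2.581 and 10.26 CPM and libraries between 37.1 and 101.1 CPM.

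Both restricted diets had less methionine, and their average effect against the controls, which uses all 24 mice, called 3 of the 34 tested genes: Slc36a2 and Slc6a6 rose and Slc7a8 fell. The background of this comparison was 6.99% of all 15176 genes tested (edgeR quasi-likelihood test, Benjamini-Hochberg adjusted p under 0.05 over all genes), 5.23% higher and 1.76% lower, so the count of 3 of 34 is near the background. At an unadjusted p under 0.05 there were 5 of the 34 (14.7%), beside 19.1% of all genes. The median log2 fold change of the 34 genes was -0.166, and that of all genes was -0.0676. In bulk tissue, fewer cells of a type and less RNA per cell cannot be told apart.

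Slc36a2 encodes PAT2, a proton-coupled carrier of small amino acids such as glycine, alanine and proline. The gene lies on the minus strand at chr11:55158470-55185077 (GRCm38). Its level in elemental controls ran from 123.6 to 207.5 CPM with a median of 154.4, and in elemental MR from 208 to 263.7 with a median of 230.3. In casein controls it ran from 93.61 to 167.1 CPM with a median of 134.9, and in oxidized casein MR from 181.5 to 245.9 with a median of 224.9. Every restricted mouse stood above every control mouse on the same protein source. The 2 elemental values nearest each other were 207.5 and 208 CPM, so those groups almost touch.

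The average MR effect on Slc36a2 was a log2 fold change of 0.63 (SE 0.09, 1.55-fold), with an edgeR adjusted p of 0.000254. On casein it was 0.70 (SE 0.13, 1.62-fold, edgeR adjusted p = 0.00541), from 135.5 ± 27.8 CPM in controls to 219.7 ± 22.1 in restricted mice (SD, n = 6 each). On elemental amino acids it was 0.56 (SE 0.13), from 157.7 ± 30.1 to 232.2 ± 20.7 CPM, with an edgeR adjusted p of 0.0823, which did not pass. This elemental p moved below the threshold with DESeq2 (0.00627) and with lymph node presence in the edgeR model (0.029), a fit in which 1.09% of all genes passed. The difference between the casein and elemental MR effects was 0.14 (SE 0.19, edgeR adjusted p = 0.91).

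Slc6a6 encodes TauT, the sodium-dependent carrier of taurine, an end product of sulfur amino acid breakdown. It lies on the plus strand at chr6:91684053-91759066. Elemental controls ran from 73.11 to 110 CPM (median 84.65) and elemental MR from 99.03 to 165.6 (median 138.6). Casein controls ran from 63.9 to 116.2 CPM (median 85.66) and oxidized casein MR from 101.7 to 134 (median 108.4). The groups overlapped on both protein sources; the median of elemental MR lay above every elemental control, and that of oxidized casein MR below the highest casein control. The average MR effect was 0.51 (SE 0.10, 1.43-fold, edgeR adjusted p = 0.00191).

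Taken singly, neither diet pair passed for Slc6a6: the log2 fold change was 0.61 (SE 0.14) on elemental amino acids with an edgeR adjusted p of 0.0674, and 0.42 (SE 0.14) on casein with 0.101. With lymph node presence in the model both passed, at 0.578 (adjusted p = 0.0241) and 0.501 (adjusted p = 0.0225). The exons of Slc6a6 share 117 bases with Gm44981 on the opposite strand, and the strand setting of the counting is not given in the sources used here, so reads from these genes cannot be told apart there.

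Slc7a8 encodes LAT2, a system L light chain that exchanges neutral amino acids. It lies on the minus strand at chr14:54722209-54781946. Its level ran from 4.468 to 14.14 CPM (median 8.797) in elemental controls and from 1.793 to 4.15 (median 3.62) in elemental MR, with no overlap. In casein controls it ran from 6.581 to 34.52 CPM (median 10.78) and in oxidized casein MR from 4.051 to 7.473 (median 5.127), where the groups overlapped at the edge. The spread among casein controls, 14.57 ± 10.9 CPM (SD, n = 6), was the widest of the 4 groups. The average MR effect was -1.41 (SE 0.26, 2.65-fold lower, edgeR adjusted p = 0.00145).

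On casein alone Slc7a8 fell by 1.40 on the log2 scale (SE 0.36, edgeR adjusted p = 0.0287), and on elemental amino acids its log2 fold change was -1.41 (SE 0.37), with an edgeR adjusted p of 0.114. The casein call was lost when any of 7 single libraries was left out, namely casein controls 1, 4 and 5 and oxidized casein MR 1, 3, 5 and 6, with adjusted p between 0.0536 and 0.0804. Without casein control 5, whose level was 34.52 CPM, the log2 fold change was -0.934. The call was also absent when only the casein groups were fitted and with limma voom. With lymph node presence as a term the casein effect was -1.57 (edgeR adjusted p = 0.000724). The elemental effect passed with DESeq2 (-1.42, adjusted p = 0.0159), with lymph node presence as a term (-1.21, edgeR adjusted p = 0.0227) and with the B cell marker mean as a term (-1.25, edgeR adjusted p = 0.014). The average MR effect passed in each of the 24 fits that left out 1 library, with log2 fold changes between -1.48 and -1.17.

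The stretch upstream of Slc7a8 is shown because it was the only one of the 3 called genes with a promoter sequence at hand. Slc36a2 and Slc6a6 had none and were not searched. The stretch upstream of Slc7a11 is shown because its promoter holds the element through which ATF4 is known to act. Both are RefSeq promoter sequences of GRCm38.p6, 5′ to 3′ on the minus strand, ended before the start of the GENCODE gene. Capitals mark matches to TGATGNAAN, the amino acid response element, searched on both strands.
Slc7a8, chr14:54781947-54782136: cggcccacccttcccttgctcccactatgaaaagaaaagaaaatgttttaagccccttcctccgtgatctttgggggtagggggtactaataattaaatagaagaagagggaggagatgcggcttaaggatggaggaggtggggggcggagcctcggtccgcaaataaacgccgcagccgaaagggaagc
Slc7a11, chr3:50443615-50443863: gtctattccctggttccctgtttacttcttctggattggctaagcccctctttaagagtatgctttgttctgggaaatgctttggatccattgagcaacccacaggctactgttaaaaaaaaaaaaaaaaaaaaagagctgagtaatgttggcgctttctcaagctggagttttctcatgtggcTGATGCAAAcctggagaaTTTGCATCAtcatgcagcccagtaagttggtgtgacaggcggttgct
Slc7a11 held 2 matches, starting 66 and 48 bases before the RefSeq start, 1 on each strand, and Slc7a8 held none. Within 250 bases upstream, 3.44% of 32851 promoters held this motif. The promoter table held 26 of the carrier genes, with 37 promoters, and 2 of these genes had the motif (Slc7a11 and Slc7a7). Here a carrier gene counts once if any of its promoters matches, so counts of genes and shares of promoters are unlike measures. TGACNNNGC, the antioxidant response element, was held by 10.2% of promoters and 5 of the 26, and the E-box CACGTG by 6.02% and 3 of the 26. A match is a description of these letters, not evidence of binding.

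**Figure D2:**
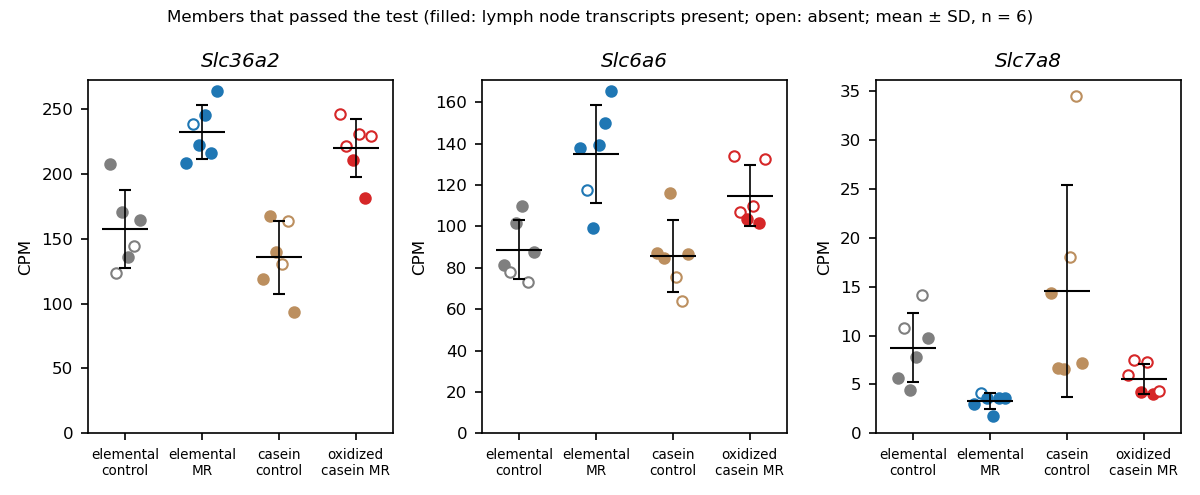
CPM of Slc36a2, Slc6a6 and Slc7a8 in each mouse by diet, with the mean and SD of 6 mice. Filled points are libraries with lymph node transcripts and open points those without. Slc36a2 separates restricted from control mice on both protein sources, and in Slc7a8 the 2 highest casein controls, up to 34.52 CPM, are libraries without lymph node transcripts.

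Cell type markers moved beside these genes. Of 11 brown and beige adipocyte markers, 8 rose and none fell in the average MR effect (edgeR), where 5.23% of all genes rose and 1.76% fell. Among the 8 were Kcnk3 (2.20-fold), Elovl3 (7.81-fold), Ppargc1a (1.66-fold) and Cox8b (2.53-fold). The summed level of the 11 markers ran from 3375 to 6493 CPM in elemental MR beside 414 to 3811 in its control, and from 1017 to 4465 CPM in oxidized casein MR beside 289.2 to 1405 in its control. Ucp1, the defining marker, ranged from 7.121 to 2619 CPM and was at 0 in no library. The part of brown or beige adipocyte content in the Slc36a2 and Slc6a6 values was not tested.

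Beside Slc7a8, 4 of 12 macrophage markers fell in the average MR effect and none rose, with C1qa 1.45-fold and Cd68 1.66-fold lower. Of 11 adipose progenitor and fibroblast markers, 3 fell and none rose, with Dpt 1.87-fold lower. Of 14 white adipocyte markers, 2 rose (Cfd 1.71-fold and Pnpla2 1.32-fold) and 1 fell (Lep 3.35-fold lower). Of 10 endothelial markers, 1 fell (Pecam1, 1.195-fold lower) and none rose. In the B cell, T cell, skeletal muscle, hepatocyte and ductal epithelium lists 0 markers were called. Of all genes, 5.23% rose and 1.76% fell in the average MR effect. Summed macrophage levels ran from 304.8 to 938.9 CPM in elemental MR beside 641.6 to 1114 in its control, and from 418.8 to 893.4 CPM in oxidized casein MR beside 671 to 1051 in its control. Summed progenitor and fibroblast levels ran from 1954 to 5244 CPM and 1306 to 2167 in the elemental groups, and from 1780 to 5075 and 1765 to 3531 in the casein groups. The part of any of these cell types in the Slc7a8 values was not tested.

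The other carriers of methionine and large neutral amino acids did not pass in any comparison. Slc3a2, the heavy chain shared by Slc7a5, Slc7a8, Slc7a10 and Slc7a11, had a median of 136.5 CPM in elemental MR beside 119.5 in its control, and of 154.7 CPM in oxidized casein MR beside 133 in its control. Its average log2 fold change was 0.16 (SE 0.09, edgeR adjusted p = 0.332). Slc7a5, the light chain most often tied to growing cells, was low, with group means between 1.948 and 2.721 CPM. Slc43a2 (LAT4) had group means between 21.29 and 29.23 CPM.

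Slc43a1 (LAT3) ran from 6.752 to 14.09 CPM (median 11.75) in oxidized casein MR and from 3.56 to 8.802 (median 6.156) in casein controls. The elemental groups had medians of 5.968 and 6.826 CPM. Its log2 fold change on casein was 0.86 (SE 0.30, unadjusted p = 0.00949, edgeR adjusted p = 0.13), and the difference between the casein and elemental MR effects was 0.90 with an unadjusted p of 0.0473 and an edgeR adjusted p of 0.91. The oxidized casein MR group was thus the highest, but the difference did not pass the correction over all genes.

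Carriers known to respond to amino acid shortage showed no called change. Slc38a2 (SNAT2), a sodium-coupled carrier of small neutral amino acids, ran from 71.22 ± 13.2 to 88.31 ± 11.7 CPM on elemental amino acids and from 82.17 ± 18.5 to 77.22 ± 21.9 CPM on casein (control to MR, mean ± SD, n = 6). Its log2 fold changes were 0.31 (SE 0.18) and -0.09 (SE 0.18), with edgeR adjusted p of 0.584 and 0.837. Slc7a11 (xCT), the cystine importer whose promoter is printed above, had group means between 1.54 and 4.013 CPM with SDs between 1.87 and 3.93 CPM, and its log2 fold changes were 0.05 (SE 1.02) and -1.36 (SE 1.07). Slc7a1 (CAT1), a carrier of arginine and lysine, had group means between 11.89 and 16.33 CPM. Slc1a5 had means of 807.2 ± 200 and 603.2 ± 170 CPM in elemental control and MR, and 913.6 ± 320 and 811.5 ± 187 CPM in casein control and oxidized casein MR, with wide overlap.

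With lymph node presence as a term, Slc1a5 fell in the average MR effect by 0.347 on the log2 scale (SE 0.0843, edgeR adjusted p = 0.00582), whereas without the term the value was -0.296 (edgeR adjusted p = 0.315). The background of the fit with the term was 12.8% of genes, and 5 of the 34 genes were called in it. Slc7a10 (ASC-1), an exchanger of serine, alanine and cysteine, was another, higher by 0.383 (SE 0.116, edgeR adjusted p = 0.0288); without the term its value was 0.454 (edgeR adjusted p = 0.311). With the B cell marker mean as the term in its place, Slc7a10 was not called (0.361, edgeR adjusted p = 0.0545). Its exons share 377 bases with Lrp3 on the opposite strand.

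The lysosomal carriers tied to the growth regulator mTORC1 are Slc36a1 (PAT1) and Slc38a9, an arginine sensor. Slc36a1 had means of 13.1 ± 2.81 and 11.83 ± 1.44 CPM in elemental control and MR and 15.04 ± 2.79 and 11.68 ± 1.68 CPM in casein control and oxidized casein MR. Slc38a9 had means of 15.63 ± 1.83 and 13.39 ± 1.79, then 17.72 ± 3.15 and 14.48 ± 3.09 CPM. Both means were lower under MR on each protein source. The average log2 fold changes were -0.26 (SE 0.10, edgeR adjusted p = 0.149) for Slc36a1 and -0.25 (SE 0.10, edgeR adjusted p = 0.152) for Slc38a9, which did not pass. With lymph node presence in the model, Slc36a1 fell on casein by 0.427 (edgeR adjusted p = 0.0476), where 7.38% of all genes and 4 of the 34 were called. Its average effect did not pass in that fit (-0.259, edgeR adjusted p = 0.062). With the B cell marker mean as the term, Slc36a1 passed on casein (-0.44, edgeR adjusted p = 0.034) and in the average effect (-0.267, edgeR adjusted p = 0.0441). The counts of all genes called in the B cell fit are in the last section.

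Among the remaining abundant genes, Slc1a3 (GLAST), a glutamate carrier, had medians of 140.6, 161.9, 158.7 and 222.6 CPM in elemental control, elemental MR, casein control and oxidized casein MR. Slc38a10, a relative of the SNAT carriers, had medians of 137.9, 127.8, 92.78 and 113.2 CPM in the same order. Slc43a3, a nucleobase carrier despite its family name, had medians of 32.96, 24.46, 37.63 and 39.01 CPM. None of the 3 passed in any of the 6 comparisons, and their groups overlapped throughout.

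**Figure D3:**
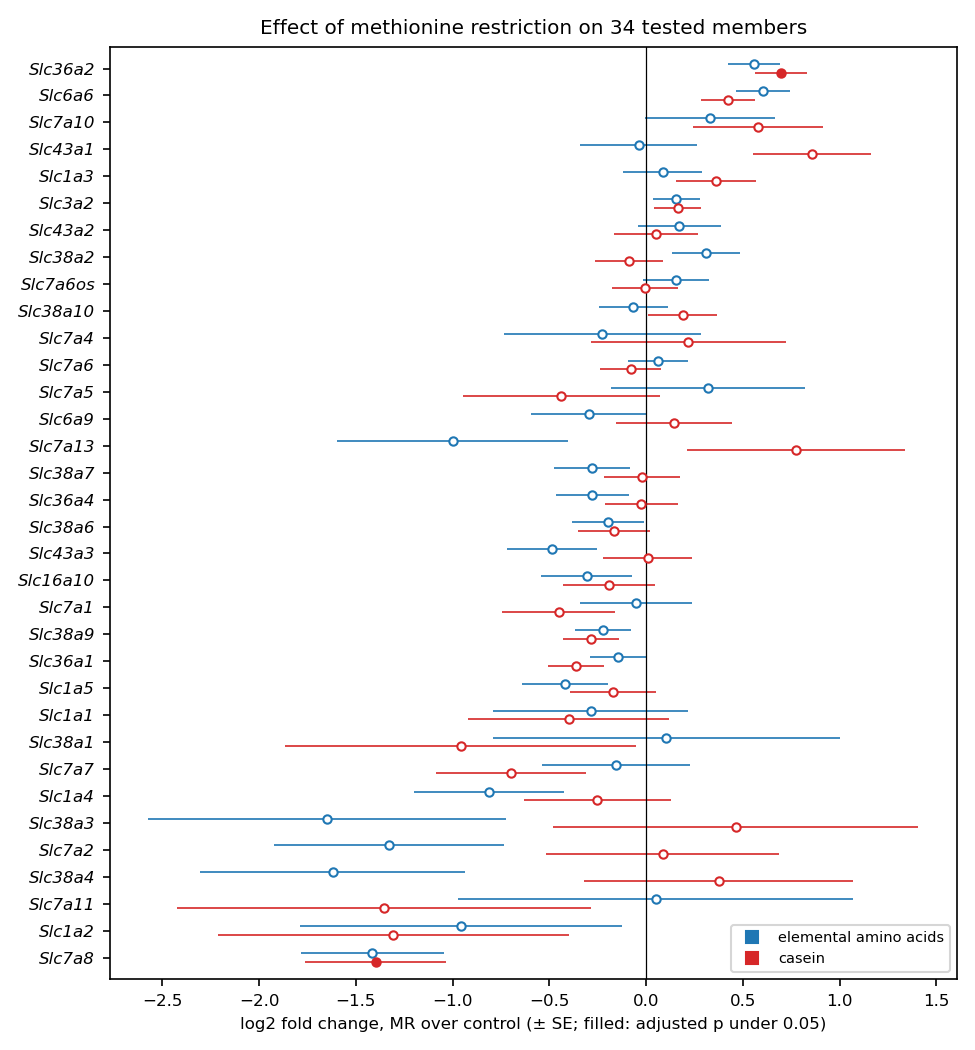
Log2 fold change of MR over control on elemental amino acids (blue) and on casein (red) for the 34 tested genes, with SE, ordered by the average effect. Filled points passed the edgeR test within that protein source; they are Slc36a2 (0.70) and Slc7a8 (-1.40) on casein. Error bars are widest for Slc7a11, Slc38a1, Slc1a2 and Slc38a3.

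Within each protein source the counts were smaller. On elemental amino acids 0 of 34 genes were called, against 0.244% of all genes (edgeR). At an unadjusted p under 0.05 there were 7, of which 2 were higher and 5 lower. That is 20.6% of the 34, beside 10.2% of all genes. DESeq2 called 3 (Slc36a2, Slc6a6 and Slc7a8) and limma voom 0. Of all genes, too, DESeq2 called more than edgeR here, as counted in the last section. Leaving out single libraries gave 1 or 2 calls, from the same 3 genes, without elemental control 1, elemental MR 3 or casein control 3, 5 or 6. The median log2 fold change was -0.177, against -0.0206 for all genes, with 12 values above and 22 below 0. Of the 34, Slc36a2 was higher and Slc7a8 lower with no overlap between the groups, as were 0.573% (higher) and 0.25% (lower) of all genes. On casein 2 of 34 were called, Slc36a2 higher and Slc7a8 lower, against 3.82% of all genes (3.35% higher and 0.461% lower). At an unadjusted p under 0.05 there were 5 of the 34 (14.7%), beside 16.1% of all genes. The median was -0.0228, against -0.0632 for all genes. Slc36a2 alone did not overlap between the casein groups; it was higher, as were 2.27% of all genes.

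The difference between the MR effects called 0 of 34 genes, and 0% of all genes (edgeR). Unadjusted p fell under 0.05 for 2 of the 34 (5.88%), beside 3.33% of all genes, and DESeq2 and limma voom called none of the 34. Casein control against elemental control called 0 of 34, against 0.659% of all genes, with 4 genes (11.8%) at an unadjusted p under 0.05, beside 12.6% of all genes. There DESeq2 called 1 gene, Slc38a4, and limma voom 0, and of all genes DESeq2 again called more than edgeR (counted in the last section). Elemental control 6, the albumin-rich library, stood at 65.84 CPM of Slc38a4 and the other elemental controls at 2.956 to 10.92. The DESeq2 log2 fold change was -2.03 with this library (adjusted p = 0.0383) and -0.858 without it (adjusted p = 0.597), and that of edgeR was -2.04 (adjusted p = 0.189) and -0.86 (adjusted p = 0.704). The DESeq2 fit without this library was chosen after seeing the data. Without casein control 5, edgeR called 1 gene there, Slc38a10, lower in casein controls. Oxidized casein MR against elemental MR also called 0 of 34, and 0% of all genes, with 6 genes (17.6%) at an unadjusted p under 0.05, all higher, beside 6.98% of all genes, and 0 calls by DESeq2 and limma voom. The smallest edgeR adjusted p among these 6 was 0.636. No gene of the 34 separated the groups without overlap in the casein against elemental controls (0.929% of all genes did) or between the restricted diets (0.428%). These comparisons share mice with the MR effects.

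Lymph node content marked several carriers. No test was made, since the sets were formed from the data. Of the 34, 4 were higher without overlap in the 15 libraries with lymph node transcripts and 2 were lower, where 6.15% of all genes were higher and 0.857% lower. Slc38a1 (SNAT1), a glutamine carrier, had a median of 58.43 CPM (37.1 to 101.1) with and 4.15 CPM (2.581 to 10.26) without these transcripts. Slc7a11 had 4.014 against 0.1334 CPM, Slc1a2, a glutamate carrier, 2.366 against 0.1334, and Slc7a1 17.62 against 9.342. In the other direction, Slc1a5 had 599.6 CPM (457 to 840.3) with and 1011 (850.7 to 1497) without, and Slc7a10 had 53.54 against 104 CPM. Slc36a2 (181.5 against 221 CPM) overlapped between the sets.

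**Figure D4:**
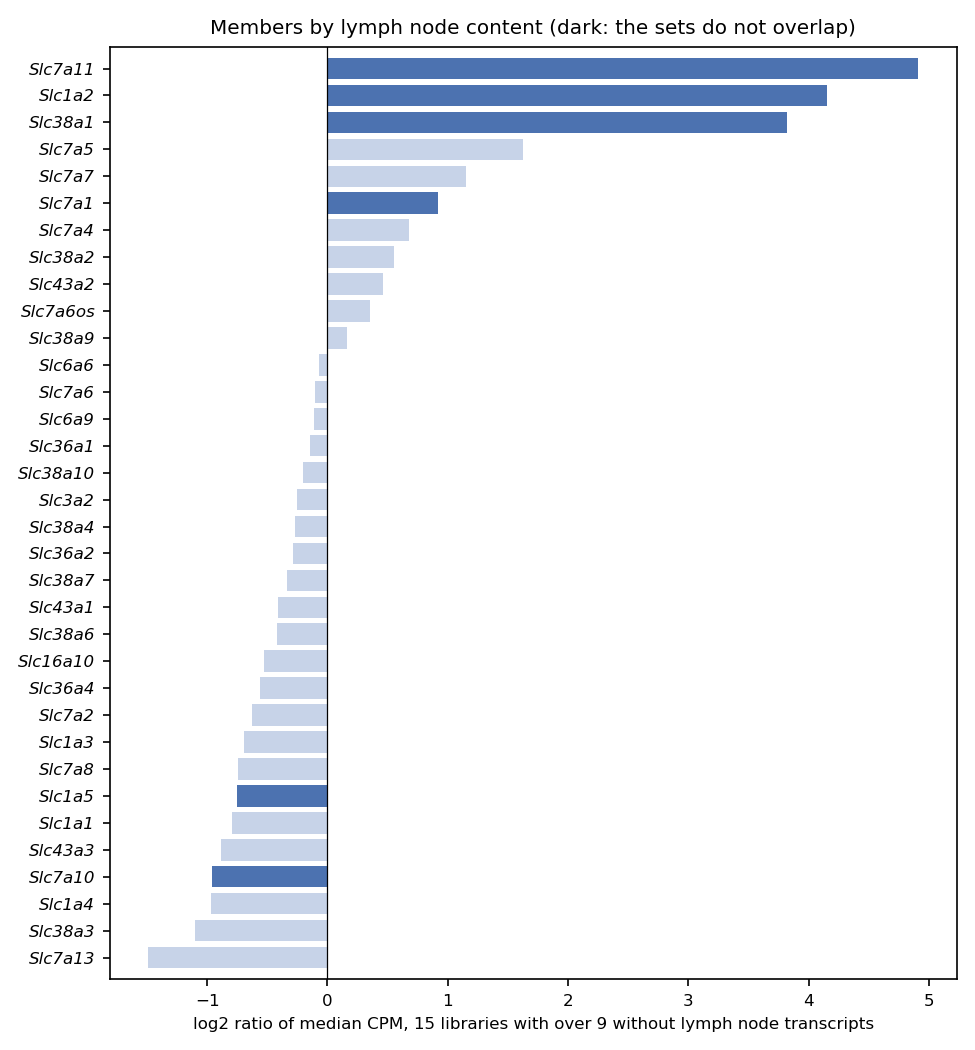
Log2 ratio of the median CPM in 15 libraries with over 9 libraries without lymph node transcripts, for the 34 tested genes. Dark bars are the 6 genes whose ranges do not overlap: Slc7a11, Slc1a2, Slc38a1 and Slc7a1 higher, Slc1a5 and Slc7a10 lower.

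Within each of the lymph node sets, Slc36a2 and Slc7a8 kept their order. Slc36a2 ran from 135.7 to 207.5 CPM in 4 elemental controls and from 208 to 263.7 in 5 elemental MR mice with these transcripts, and from 123.6 to 144.4 in 2 controls against 238.3 in the single restricted mouse without them. On casein it ran from 93.61 to 167.1 against 181.5 to 210.3 CPM with, and from 130.3 to 163.5 against 221 to 245.9 CPM without. Slc7a8 ran from 6.581 to 14.38 against 4.051 to 4.251 CPM with, and from 18.08 to 34.52 against 4.336 to 7.473 CPM without, on casein. No overlap within both sets was found for Slc36a2 and Slc7a8 on elemental amino acids (1.05% of all genes higher and 0.942% lower), and for these and Slc36a1, lower, on casein (3.97% and 2.46%). Fitted within the sets, the average MR effect on Slc36a2 was 0.512 with (edgeR adjusted p = 0.0353) and 0.803 without (0.016), and that on Slc7a8 was -1.12 (0.0201) and -1.77 (0.0137). The casein effect on Slc36a2 alone did not pass in either set, at 0.575 with (edgeR adjusted p = 0.29) and 0.715 without (0.0514). Slc6a6 had an average effect of 0.324 with (edgeR adjusted p = 0.175), which did not pass, and 0.775 without (0.0193). In the average effect 2.2% of all genes were called with and 2.02% without. In the set without lymph node transcripts, the casein effect was -2.01 for Slc7a8 and 0.851 for Slc6a6. Only 1 restricted mouse on elemental amino acids lacked lymph node transcripts, and the fit takes it to vary like the other groups.

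The albumin-rich elemental control held the highest level of several low carriers. These genes were singled out after their values were seen. Slc38a4 (SNAT4) and Slc38a3 (SNAT3), both abundant in liver, stood at 65.84 and 25.59 CPM there, with no other library above 12.72 and 6.658 CPM. Slc7a2 (CAT2) stood at 38.6 CPM, with the others at or below 10.46. In all, 5 of the 37 genes had their highest level in this library, against 4.35% of genes tested. On elemental amino acids the log2 fold change of Slc38a4 was -1.62 with this library and -0.444 without it, that of Slc38a3 -1.65 and -0.291, and that of Slc7a2 -1.33 and -0.356. None of these passed the edgeR test with it (smallest adjusted p = 0.392).

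**Figure D5:**
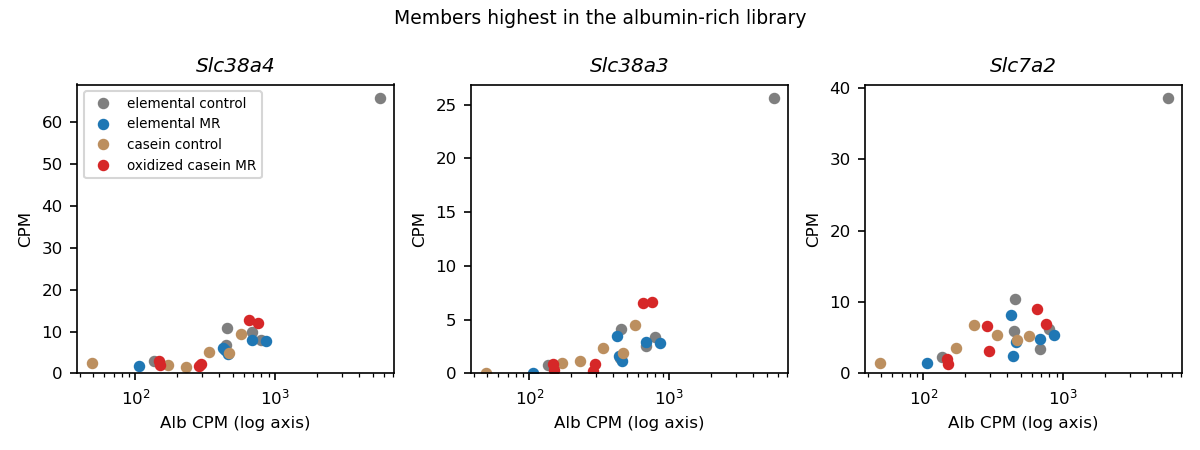
CPM of Slc38a4, Slc38a3 and Slc7a2 against Alb CPM (log axis) in 24 libraries, coloured by diet. One elemental control, at 5610 CPM of Alb, stands apart in each panel, with Slc38a4 at 65.84 CPM.

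Related genes outside the rule were counted in the same way. Of 10 other amino acid carriers in the tables, 0 passed in any of the 6 comparisons by edgeR, DESeq2 or limma voom. At most 2 of them had an unadjusted edgeR p under 0.05 in a comparison. Of 12 mitochondrial amino acid carriers, 3 rose and none fell on casein and in the average MR effect: Slc25a44, a branched-chain amino acid carrier, was 1.59-fold higher on casein, Slc25a39, a glutathione carrier, 1.67-fold, and Sfxn1, a serine carrier, 1.49-fold. Of all genes tested, 3.35% were higher on casein and 5.23% in the average effect (edgeR). Of 34 genes of amino acid sensing by mTORC1, 1, Mtor, rose in the average effect in edgeR (1.40-fold, edgeR adjusted p = 0.0209), beside the same 5.23%. DESeq2 called 3 of the 34, Mtor, Flcn and Fnip1, all higher, and its share over all genes in this effect is not given here.

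Of 27 genes of the GCN2 and ATF4 response, 3 rose and none fell in the average MR effect: Cebpb (1.68-fold), Atf4 itself (1.22-fold) and Atf5 (1.40-fold), with edgeR adjusted p of 0.0239, 0.024 and 0.0388. Of all genes, 5.23% were higher in this effect. In the same effect limma voom called 3 genes of the list. DESeq2 called 4, the same 3 as edgeR and Trib3 (log2 fold change 0.425, DESeq2 adjusted p = 0.0423), without a DESeq2 share over all genes beside it. Within the protein sources 0 of the 27 passed in edgeR and in limma voom and 1 in DESeq2 on each, with 7 (elemental) and 3 (casein) at an unadjusted edgeR p under 0.05, where 10.2% and 16.1% of all genes were. The median log2 fold change of the 27 was 0.115, against -0.0676 for all genes. Of 23 genes of the methionine cycle and cysteine metabolism, Ahcyl1, a relative of the enzyme that splits S-adenosylhomocysteine, rose on casein (1.61-fold) and in the average effect (1.48-fold). Of all genes, 3.35% and 5.23% were higher in these comparisons. Between the control diets, Gclm of the same list was 1.635-fold lower in casein controls (edgeR adjusted p = 0.0363). There edgeR called 0.659% of all genes, and limma voom called 0 genes of the list.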

How the data were processed

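The authors deposited a table of raw counts per Ensembl gene and a table of normalized signal, which equals the raw counts divided by 1 factor per library to a relative difference of 9.8e-15; only the counts were tested. Per the submitters' processing notes the tools were R 3.4.3 and DESeq2 1.18.1 and the builds GRCm38 and mm10; the aligner and counting program are not given there. Reads were 50 bp from a QuantSeq 3′ kit, per the labels' protocols. Counts were filtered with filterByExpr (15176 genes kept, 1645 removed), scaled by TMM and tested with edgeR 4.0.16 in R 4.3.3 by quasi-likelihood F tests (2-sided) in a model with 1 mean per diet, with Benjamini-Hochberg adjustment over all genes and a threshold of 0.05. The average MR effect is the mean of both MR effects. The SE was taken from each log2 fold change and its F value. CPM uses TMM-scaled totals. Lymph node transcripts were called present above a B cell marker mean of 4 log2 CPM (prior count 2). DESeq2 1.42.0 and limma voom (3.58.1), other scalings and samples left out were alternatives. The smallest chi-square per degree of freedom between libraries of a group was 6.21, so none was counted as a repeat. Mice carry separate numbers, per the labels. The symbol was missing for 2718 genes, which the name rule could not reach. Named genes were those called, the 12 with the highest mean level and others picked by role. The genes and lists were chosen with earlier results of these data known. The script was tested on simulated data. Gene positions are from GENCODE M21 (GRCm38).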

Additional observations from a re-analysis of the deposited data

Results flagged for a closer look

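In 18 named genes and 4 diets, 72 sets of 6 mice were checked for a lowest or highest mouse far from the others. Dixon's test at its usual critical value was used on log2 CPM (prior count 2), and the values below are in CPM. Such a mouse was found in 6 sets, where chance gives about 1 in 20. In elemental MR replicate 2, a library without lymph node transcripts, Slc38a1 stood at 4.15 CPM (others 37.1 to 58.87), Slc7a11 at 0.1729 CPM (others 1.98 to 5.625) and Slc7a5 at 0.2594 CPM (others 1.958 to 4.715). The other flags were in libraries without lymph node transcripts too. Slc36a1 stood at 20.47 CPM in casein control replicate 5 (others 13.25 to 15.48), Slc7a5 at 0.9341 CPM in casein control replicate 4 (others 2.416 to 3.748) and Slc38a2 at 47.27 CPM in elemental control replicate 5 (others 71.18 to 86.47).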

How the results depend on the processing

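The 3 calls of the average MR effect (Slc36a2, Slc6a6 and Slc7a8) held in the 24 fits that left out 1 library and under every other alternative run, except that Slc6a6 lost its call in libraries with lymph node transcripts alone. Scalings moved the median log2 fold change of all genes by under 0.1. With DESeq2, the number of carrier genes called was 3 in the elemental MR effect and 1 in the casein against elemental control. There, the number of all genes called was 213 in the elemental MR effect, 915 in the casein MR effect, 2 in the difference between the MR effects, 411 in the casein against elemental control and 12 in the comparison of the restricted diets. With limma voom, the number of carrier genes called was 1 in the casein MR effect. Signs turned in the casein MR effect for Slc38a3 (-0.167) and Slc7a2 (-0.195). With only the compared groups fitted, the number of carrier genes called was 1 in the casein MR effect. There, the number of all genes called was 23 in the elemental MR effect, 339 in the casein MR effect and 2 in the casein against elemental control. With lymph node presence in the edgeR model, the number of carrier genes called was 3 in the elemental MR effect, 4 in the casein MR effect and 5 in the average MR effect. There, the number of all genes called was 166 in the elemental MR effect, 1120 in the casein MR effect, 1941 in the average MR effect and 313 in the casein against elemental control. Signs turned in the elemental MR effect for Slc38a1 (-0.214), Slc43a1 (0.00607), Slc7a11 (-0.469) and Slc7a5 (-0.047). Others turned in the casein MR effect for Slc38a2 (0.0751), Slc43a3 (-0.183) and Slc7a2 (-0.201). With the B cell marker mean in the model, the number of carrier genes called was 3 in the elemental MR effect, 5 in the casein MR effect and 5 in the average MR effect. There, the number of all genes called was 200 in the elemental MR effect, 1064 in the casein MR effect, 1988 in the average MR effect, 343 in the casein against elemental control and 1 in the comparison of the restricted diets. Signs turned in the elemental MR effect for Slc38a1 (-0.0919), Slc43a1 (0.00611) and Slc7a11 (-0.315). Others turned in the casein MR effect for Slc38a2 (0.0704), Slc43a3 (-0.163) and Slc7a2 (-0.271). In libraries with lymph node transcripts alone, the number of carrier genes called was 0 in the casein MR effect. There, the number of all genes called was 5 in the elemental MR effect, 5 in the casein MR effect, 344 in the average MR effect and 177 in the casein against elemental control. Signs turned in the elemental MR effect for Slc36a1 (0.014), Slc38a1 (-0.184) and Slc7a11 (-0.198). Others turned in the casein MR effect for Slc38a2 (0.0673), Slc43a2 (-0.0145), Slc43a3 (-0.119), Slc7a1 (0.00938), Slc7a5 (0.242), Slc38a3 (-1.93), Slc38a4 (-1.16) and Slc7a2 (-1.34). In libraries without them alone, the number of all genes called was 0 in the elemental MR effect, 172 in the casein MR effect, 320 in the average MR effect and 0 in the casein against elemental control. Signs turned in the elemental MR effect for Slc38a1 (-0.174), Slc38a10 (0.03), Slc3a2 (-0.124), Slc43a1 (0.404), Slc7a1 (0.116), Slc7a11 (-1.76), Slc7a5 (-2.43) and Slc7a2 (0.0338). Others turned in the casein MR effect for Slc38a1 (0.347), Slc38a10 (-0.14), Slc38a2 (0.207), Slc43a3 (-0.224), Slc7a11 (1.63) and Slc1a2 (1.52). Without 2 muscle-rich libraries in the elemental groups (Acta1 above 1000 CPM), the number of all genes called was 8 in the elemental MR effect and 170 in the casein against elemental control. Without the albumin-rich library, the number of all genes called was 15 in the elemental MR effect and 53 in the casein against elemental control. Signs turned in the elemental MR effect for Slc43a1 (0.0242). With 1 library left out, the elemental MR effect called 0 to 2 carrier genes and 7 (without elemental control 5 or elemental MR 6) to 252 (without elemental control 1) of all genes, the casein MR effect 1 to 3 and 316 (without casein control 6) to 825 (without casein control 5), the casein against elemental control 0 to 1 and 24 (without elemental control 3) to 202 (without elemental control 2), and the comparison of the restricted diets 0 to 1 of all genes. Fitting only the compared groups gives no separate value for the average effect and the difference, which use all groups. No signed value that turned had passed the test. Single libraries left out also turned uncalled values, with ranges of -0.162 to 0.418 for Slc38a1, -0.195 to 0.146 for Slc43a1, -0.166 to 0.0435 for Slc7a1 and -0.244 to 0.394 for Slc7a11 in the elemental MR effect; -0.275 to 0.027 for Slc1a5, -0.106 to 0.962 for Slc38a3, -0.046 to 0.776 for Slc38a4, -0.0742 to 0.147 for Slc43a2, -0.0952 to 0.123 for Slc43a3 and -0.169 to 0.288 for Slc7a2 in the casein MR effect. The cause of these shifts was not tested. No paired analysis was possible because the labels give each mouse its own number and no number shared between groups. Carriers under 1 CPM, with 95 to 252 reads in all, limit what could be detected.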
